A study of Homo sapiens with 12 samples.

Results

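The AP-1 transcription factor family was followed by the 10 genes FOS, FOSB, FOSL1, FOSL2, JUN, JUNB, JUND, ATF3, BATF3 and MAFF, chosen by their gene symbol among the 48114 genes listed for each cell line. All 10 were found as single rows, and all 10 were among the 22544 genes that reached the minimum for testing, an average of 10 normalized counts over the PANC-1 libraries. RNA was sequenced from polyA-selected libraries of 2 pancreatic ductal adenocarcinoma (PDAC) cell lines, PANC-1, which the study uses as a basal-like line, and HPAF-II, which it uses as a classical line. PANC-1 cells received control siRNA (siCtrl), siRNA against the splicing factor QKI (siQKI) or siRNA against the splicing factor RBFOX2 (siRBFOX2) and were collected 48 h later, the QKI and RBFOX2 siRNAs at 40 nM, and HPAF-II cells are labelled as given siCtrl for the same time. Each of the 4 groups has 3 libraries. Each group is a single established line grown in the same medium, and nothing in the labels says whether the 3 libraries came from separate cultures, so p-values measure only the spread between these libraries. In bulk libraries, fewer cells that express a gene and less RNA per cell cannot be told apart.

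AP-1 is a dimer of basic leucine zipper proteins. A Fos protein (FOS, FOSB, FOSL1 or FOSL2) pairs with a Jun protein (JUN, JUNB or JUND), whereas Jun proteins also pair with each other and with relatives such as ATF3 and BATF3. The dimers bind short DNA elements, the TPA response element (TRE) and the cyclic AMP response element (CRE), and carry signals from the RAS and MAP kinase cascades to transcription. FOS and FOSB are immediate-early genes whose RNA is short-lived, and FOSL1 (also called FRA-1) is known for sustained expression downstream of RAS and ERK signalling in carcinoma cells.

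The values are normalized counts, counts of a gene after division by a size factor of the library, which was done by the authors, and totals lay between 292248837 and 376192091 count steps in PANC-1 libraries and between 226697015 and 309720537 in HPAF-II libraries. Since 82.1% to 84.8% of the low values per library were multiples of 3, 1 step cannot stand for 1 fragment and the depth behind a value is unknown. QKI fell from a mean of 25533 to 5034 normalized counts in siQKI cells and RBFOX2 fell from 15429 to 2095 in siRBFOX2 cells. RBFOX2 was also lower in siQKI cells, with a mean of 12642 (log2 fold change -0.29, past the threshold given below). QKI had a mean of 28016 in siRBFOX2 cells (log2 fold change 0.13), which did not pass. The 8 ductal epithelial markers looked at were detected in every group, with a summed level of 2888 to 2958 rescaled counts (of a library total of 1000000) in PANC-1 siCtrl cells and 12009 to 12831 in HPAF-II cells. Of 5 immune markers, 3 (PTPRC, CD3E and MS4A1) were at 0 in PANC-1 siCtrl and 2 (PTPRC and MS4A1) in HPAF-II libraries. The list summed to 144 to 167 and to 1151 to 1240 rescaled counts. Since each group is a single established line, these sums are RNA levels of the line and no share of immune cells. HPAF-II replicate 3 stood apart from the other HPAF-II libraries, and values between the lines are also given without it.

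In control PANC-1 cells the family was led by FOSL1. Per kilobase of transcript, after the same rescaling, FOSL1 had a level of 927 ± 39.1 (SD, n = 3) in siCtrl libraries and JUNB followed with 184 ± 24.1 (SD, n = 3). The next levels per kilobase were 37.5 for JUN, 30.3 for FOS, 26.1 for ATF3, 22.1 for JUND and 21.0 for FOSB, with 11.2 for MAFF, 8.48 for FOSL2 and 1.34 for BATF3 at the end of the order. Among neighbours in this order, the siCtrl libraries of JUND (20.2 to 23.4) and FOSB (18.4 to 25.2) overlapped, and those of the other neighbours did not. FOSL1 held 93.9% ± 0.605 of the summed Fos level per kilobase and JUNB held 75.4% ± 1.34 of the summed Jun level per kilobase in these cells (SD, n = 3). Levels of different genes depend on the transcript taken for the length, and since a step is not a fragment they are approximate.

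Knockdown of either factor lowered part of the family, but the members that fell most were not the same. In siQKI cells FOSL1 and JUN fell most, whereas FOS and FOSB missed the threshold in the main fit and passed it in some alternatives. In siRBFOX2 cells FOSB and FOS fell 6.45-fold and 5.18-fold, followed by JUN and JUNB. The test was limma on log2(normalized count + 1) with p-values adjusted over all 22544 genes by the Benjamini-Hochberg method and a threshold of 0.05. Both knockdowns are set against the same 3 siCtrl libraries, so their values are given side by side and not as independent evidence.

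**Figure D1:**
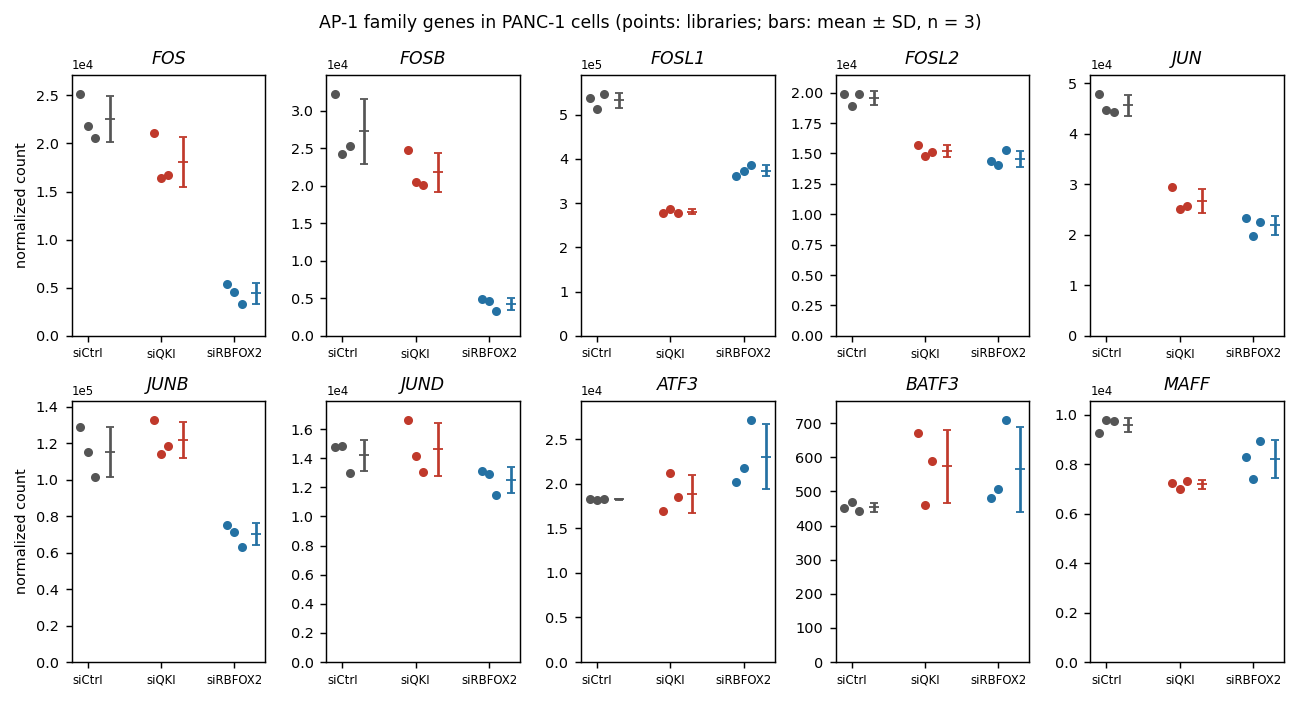
Normalized counts (vertical axes, each starting at 0) of the 10 AP-1 family genes in the 9 PANC-1 libraries, with 1 point per library and bars for the mean ± SD of the 3 libraries of siCtrl (grey), siQKI (red) and siRBFOX2 (blue). FOS and FOSB in siRBFOX2 cells lie far under the other 6 libraries, whereas FOSL1 falls into 3 separate levels, highest in siCtrl and lowest in siQKI.

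FOSL1 (GSHG0007909 in the FAST DB annotation, chr11:65892019-65900545 on hg38), the main Fos gene of these cells by RNA level, had 536855, 512327 and 546990 normalized counts in the siCtrl libraries. The siQKI libraries had 278011, 287781 and 276891, and the siRBFOX2 libraries had 360642, 372423 and 386620. The 3 groups did not overlap, and FOSL1 was lowest in siQKI cells. It fell to 52.8% of the siCtrl mean in siQKI cells (log2 fold change -0.92, standard error 0.04, adjusted p = 3.18e-10) and to 70.1% in siRBFOX2 cells (log2 fold change -0.51, standard error 0.04, adjusted p = 3.13e-07). The difference between the knockdowns was itself past the threshold (siQKI minus siRBFOX2 -0.41, adjusted p = 3.11e-06), and all 3 calls held under each of the 17 alternatives tried. No other row of the annotation overlaps FOSL1.

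FOSL2 (GSHG0023663, chr2:28392800-28417317), a Fos gene with low RNA levels in PANC-1 cells, had 19905, 18910 and 19902 normalized counts in siCtrl, 15715, 14768 and 15130 in siQKI and 14355, 14047 and 15320 in siRBFOX2 libraries. Every knockdown library lay under every siCtrl library. The log2 fold changes were -0.36 in siQKI cells (standard error 0.05, adjusted p = 2.28e-05) and -0.43 in siRBFOX2 cells (standard error 0.05, adjusted p = 8.95e-06). Between the knockdowns the log2 difference was 0.06, with a 95% interval of -0.04 to 0.16 (adjusted p = 0.415). The antisense gene FOSL2-AS1, which overlaps FOSL2, had a mean of at most 4.76 normalized counts in any group.

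FOS (GSHG0012337), the founding Fos gene, had 25157, 21849 and 20535 normalized counts in siCtrl, 21066, 16429 and 16728 in siQKI and 5428, 4565 and 3276 in siRBFOX2 libraries. The siRBFOX2 libraries were all far lower than the other 6, whereas siCtrl and siQKI libraries overlapped. FOS fell by 2.37 on the log2 scale in siRBFOX2 cells (standard error 0.14, adjusted p = 2.23e-08), whereas its value in siQKI cells was -0.32 (standard error 0.14, adjusted p = 0.0974, 95% interval -0.62 to -0.02). The row of FOS in the annotation is 430961 bases long (chr14:75278828-75709788) and overlaps 12 other rows, 7 of which have a symbol. The expressed ones did not fall with FOS in siRBFOX2 cells to a similar extent. JDP2, which encodes a Jun-dimerizing repressor, rose (log2 fold change 0.65), ERG28 had a log2 fold change of -0.04 that did not pass the threshold, and TTLL5 fell by 0.16 on the log2 scale. Because the handling of strand and of overlapping genes is not stated, reads shared between these rows cannot be told apart.

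FOSB (GSHG0021760, chr19:45467995-45475179), the second immediate-early Fos gene, had 32258, 24188 and 25310 normalized counts in siCtrl, 24728, 20562 and 20063 in siQKI and 4852, 4569 and 3322 in siRBFOX2 libraries. The pattern was that of FOS, with siCtrl and siQKI libraries overlapping and all siRBFOX2 libraries well below. It fell by 2.69 on the log2 scale in siRBFOX2 cells (standard error 0.13, adjusted p = 2.54e-09), the strongest fall in the family, and its fold change stood at place 81 from the lowest among all tested genes, where FOS stood at place 133. For siQKI cells the value was -0.32 (standard error 0.13, adjusted p = 0.0718, 95% interval -0.59 to -0.04). ERCC1, a DNA repair gene whose row overlaps FOSB, fell much less in siRBFOX2 cells (log2 fold change -0.35) and also fell in siQKI cells (-0.48).

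The siQKI values of FOS and FOSB lay near the threshold, and which side they fell on depended on the fit. Without PANC-1 siQKI replicate 1, the highest of its group for both genes, the log2 fold changes were -0.44 for FOS (adjusted p = 0.0388) and -0.41 for FOSB (adjusted p = 0.0360), whereas over the alternatives the adjusted p ranged from 0.00790 to 0.290 for FOS and from 0.00649 to 0.305 for FOSB. Both were also called with a replicate block, in a fit of only siCtrl and siQKI, and without siRBFOX2 replicate 3. FOS was also called without siRBFOX2 replicate 1 and FOSB without siCtrl replicate 2. The difference between the knockdowns was clear for both genes and held under all 17 alternatives. FOS was 2.05 higher (adjusted p = 1.2e-07) and FOSB 2.37 higher (adjusted p = 1.15e-08) on the log2 scale in siQKI than in siRBFOX2 cells.

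JUN (GSHG0002512, chr1:58780791-58784047), the Jun gene with the strongest activation function, had 47941, 44661 and 44324 normalized counts in siCtrl, 29525, 25154 and 25646 in siQKI and 23419, 19846 and 22516 in siRBFOX2 libraries. All 3 groups were separate, with siRBFOX2 cells lowest. JUN fell 1.71-fold in siQKI cells (log2 fold change -0.77, standard error 0.07, adjusted p = 4.34e-07) and 2.09-fold in siRBFOX2 cells (log2 fold change -1.06, standard error 0.07, adjusted p = 4.09e-08), and both calls held under all 17 alternatives. Between the knockdowns JUN differed by 0.29 on the log2 scale (adjusted p = 0.00538), a call that was lost only when the mean-variance trend was left out of the fit (adjusted p = 0.0775, which is the highest over the alternatives, from a lowest of 0.000597).

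JUNB (GSHG0021212, chr19:12791475-12793315), which encodes a weaker activator that can oppose JUN, had 129024, 115097 and 101275 normalized counts in siCtrl, 132535, 113744 and 118588 in siQKI and 75048, 71537 and 63250 in siRBFOX2 libraries. The siCtrl and siQKI libraries overlapped, and all siRBFOX2 libraries lay below them. JUNB fell 1.64-fold in siRBFOX2 cells (log2 fold change -0.72, standard error 0.08, adjusted p = 1.11e-05). In siQKI cells the log2 fold change was 0.08 with a 95% interval of -0.09 to 0.25 (adjusted p = 0.485), so that JUNB was 0.80 higher on the log2 scale in siQKI than in siRBFOX2 cells (adjusted p = 4.66e-06).

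JUND (GSHG0022521, chr19:18279694-18281622), the most constitutive of the Jun genes, passed the threshold in none of the 3 PANC-1 comparisons by limma. It had 14784, 14823 and 12976 normalized counts in siCtrl, 16615, 14146 and 13053 in siQKI and 13107, 12892 and 11463 in siRBFOX2 libraries, and the groups overlapped. The log2 fold changes were 0.04 in siQKI cells (95% interval -0.14 to 0.21) and -0.18 in siRBFOX2 cells (95% interval -0.36 to -0.01, adjusted p = 0.112). Of the Jun genes, JUN thus changed in both knockdowns and JUNB in siRBFOX2 cells. The row of JUND overlaps 2 rows without a symbol.

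ATF3 (GSHG0001659, chr1:212565407-212620776), a stress-induced relative that can repress as a homodimer, was the only member that rose. It had 18283, 18143 and 18275 normalized counts in siCtrl, 16928, 21186 and 18458 in siQKI and 20162, 21783 and 27126 in siRBFOX2 libraries. The siRBFOX2 libraries were all above siCtrl, by 0.32 on the log2 scale (standard error 0.09, adjusted p = 0.0150), whereas siQKI libraries lay on both sides of siCtrl (log2 fold change 0.04, adjusted p = 0.776). Without siRBFOX2 replicate 3 the rise was 0.20 (adjusted p = 0.0626) and no longer passed, and over the alternatives the adjusted p ranged from 0.00448 to 0.123. The difference between the knockdowns (-0.28, adjusted p = 0.0372) was lost under 6 of the 17 alternatives.

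MAFF (GSHG0028630, chr22:38201991-38216508), a small Maf protein without an activation domain, had 9249, 9785 and 9746 normalized counts in siCtrl, 7230, 6985 and 7336 in siQKI and 8281, 7396 and 8962 in siRBFOX2 libraries. Both knockdowns lay wholly under siCtrl. Its fall in siQKI cells held under all 17 alternatives (log2 fold change -0.42, standard error 0.06, adjusted p = 0.000112). The fall in siRBFOX2 cells was smaller (log2 fold change -0.23, standard error 0.06, adjusted p = 0.0147) and was lost under 4 alternatives, among them without siRBFOX2 replicate 2 (log2 fold change -0.15), without siCtrl replicate 2 (-0.21) and without siCtrl replicate 3 (-0.22). The difference between the knockdowns (-0.19, adjusted p = 0.0458) kept its call under only 4 of the 17 alternatives, so MAFF was not firmly distinguished between them.

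BATF3 (GSHG0003556, chr1:212686417-212699985), known for its role in dendritic cells, was the member with the lowest level, with 450, 469 and 442 normalized counts in siCtrl, 672, 459 and 589 in siQKI and 481, 507 and 709 in siRBFOX2 libraries. It passed no test. The siRBFOX2 libraries all lay above siCtrl, but their spread was wide (log2 fold change 0.30, standard error 0.19, adjusted p = 0.282), and in siQKI cells the log2 fold change was 0.32 (adjusted p = 0.215).

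**Figure D2:**
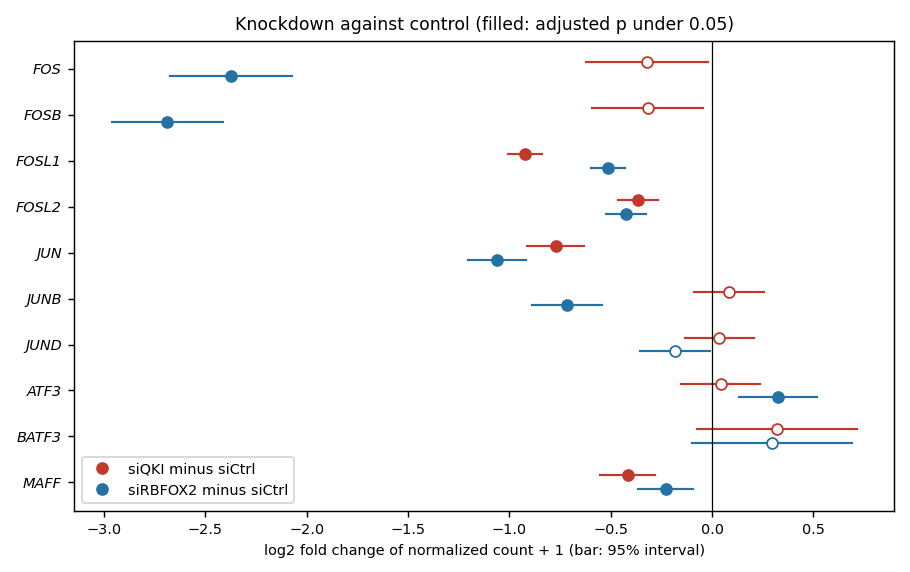
Log2 fold changes of the AP-1 family genes (horizontal axis, on log2(normalized count + 1)) in siQKI (red) and siRBFOX2 cells (blue) against siCtrl, with bars for the 95% interval and filled points for an adjusted p under 0.05. FOSB and FOS stand at -2.69 and -2.37 in siRBFOX2 cells and at -0.32 each in siQKI cells, whereas FOSL1 fell more in siQKI (-0.92) than in siRBFOX2 cells (-0.51).

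Counted over the family, 4 of 10 members passed the test in siQKI cells, all of them lower (FOSL1, FOSL2, JUN and MAFF), where 33.0% of all tested genes passed in either direction and 18.1% passed as lower. FOSL1 and JUN changed at least 1.5-fold, against 9.03% of all tested genes, and the libraries of 4 members did not overlap with siCtrl, against 44.7% of all tested genes. In siRBFOX2 cells 8 of 10 members passed, 7 lower and ATF3 higher, where 26.5% of all tested genes passed in either direction and 14.5% passed as lower. FOS, FOSB, JUN and JUNB changed at least 1.5-fold, against 5.71% of all tested genes, and 9 members had libraries that did not overlap with siCtrl, against 37.9%. The share called in siQKI cells is thus near that of all genes, and the share called in siRBFOX2 cells is above it. The median log2 fold change of the 10 members was -0.32 in siQKI and -0.47 in siRBFOX2 cells, beside 0.03 and 0.01 over all tested genes.

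Between the knockdowns, 7 members differed by limma, where 21.5% of all tested genes did. FOS, FOSB, JUN and JUNB were higher in siQKI cells, and FOSL1, ATF3 and MAFF were lower. The libraries of 6 members did not overlap between siQKI and siRBFOX2 cells, against 35.2% of all tested genes. FOS and FOSB were thus lower in siRBFOX2 cells, whereas FOSL1 was lower in siQKI cells.

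Some libraries held the extreme values of several members. In each of the 3 PANC-1 groups replicate 1 had the highest FOS, FOSB, JUN and JUNB value. In siRBFOX2 cells replicate 3 was the lowest for FOS, FOSB, JUNB and JUND and the highest for FOSL1, FOSL2, ATF3, BATF3 and MAFF. What set these libraries apart was not tested.

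Because the members fell by different amounts, the make-up of the 2 subfamilies differed between groups. The share of FOSL1 in the summed Fos level per kilobase was 91.1% ± 1.04 in siQKI and 97.7% ± 0.348 in siRBFOX2 cells (SD, n = 3), beside 93.3% to 94.5% in the siCtrl libraries, and the 3 groups did not overlap. FOS held 3.08% ± 0.320 of the Fos level in siCtrl, 4.53% ± 0.647 in siQKI and 0.90% ± 0.246 in siRBFOX2 cells. The summed Fos level per kilobase fell from 987 ± 43.2 in siCtrl to 560 ± 10.7 in siQKI and 692 ± 28.2 in siRBFOX2 cells, so siQKI cells had the lower Fos sum although their FOS and FOSB levels were the higher ones. Among Jun genes, the share of JUN went from 15.5% ± 1.06 in siCtrl to 9.20% ± 0.0684 in siQKI and 12.1% ± 1.32 in siRBFOX2 cells. The summed Jun level per kilobase was 244 ± 27.6, 249 ± 18.6 and 155 ± 11.99 in siCtrl, siQKI and siRBFOX2 cells. These shares and sums are descriptions without a test.

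**Figure D3:**
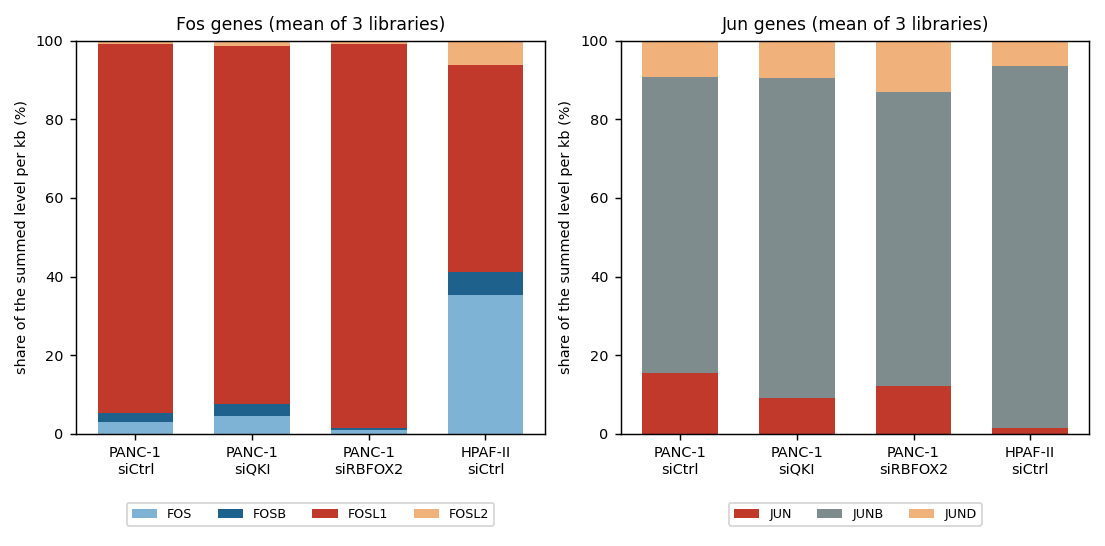
Share of each gene in the summed level per kilobase (vertical axis, percent, mean of 3 libraries) of the Fos genes (left) and the Jun genes (right) in the 3 PANC-1 groups and in HPAF-II siCtrl cells. FOSL1 fills over 91% of the Fos bar in each PANC-1 group and 52.8% in HPAF-II cells, where FOS takes 35.2%, and JUNB fills most of each Jun bar.

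The order of levels also moved within the family. FOS went from place 4 of 10 in siCtrl to place 8 in siRBFOX2 cells and FOSB from place 7 to place 9. In siRBFOX2 cells the level per kilobase of FOS, at 4.54 to 7.47, overlapped with that of FOSL2, at 6.36 to 6.83, and JUND (18.4 to 21.5) overlapped with JUN (17.4 to 19.7). In siQKI cells ATF3, FOS, JUND and JUN, with mean levels per kilobase of 28.1, 25.4, 23.7 and 22.9, could not be ordered beyond the spread of neighbours. ATF3 stood at place 3 in both knockdowns and at place 5 in siCtrl cells.

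HPAF-II cells showed another family make-up. The 2 lines were normalized in separate tables, so rescaled counts are described without a test. FOSL1 had 144, 140 and 161 rescaled counts in HPAF-II and 1584, 1471 and 1584 in PANC-1 siCtrl libraries, so it was 10.4-fold higher in PANC-1 cells (log2 ratio HPAF-II over PANC-1 -3.38). JUN had 15.6, 13.5 and 13.2 in HPAF-II and 141, 128 and 128 in PANC-1 libraries, 9.42-fold higher in PANC-1 cells (log2 ratio -3.24). These 2 members differed most between the lines.

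The other members differed less. FOSB was lower in HPAF-II cells, with 46.8, 34.3 and 31.0 rescaled counts beside 95.2, 69.5 and 73.3 in PANC-1 cells (log2 ratio -1.09), and so was ATF3, with means of 29.3 ± 3.66 and 53.0 ± 0.929 (SD, n = 3). FOS was higher in HPAF-II cells, with 151, 116 and 118 beside 74.2, 62.8 and 59.5 (log2 ratio 0.97), as were MAFF (46.9 ± 8.61 beside 27.9 ± 0.504) and FOSL2 (69.4 ± 6.51 beside 56.9 ± 2.31). BATF, a leucine zipper gene that lies inside the FOS row, was listed at 0 in all PANC-1 siCtrl libraries and had 15.1, 21.5 and 21.1 rescaled counts in HPAF-II libraries, so the FOS level of HPAF-II cells may hold reads of that gene, which was not tested. The libraries of 7 members did not overlap between the lines, against 63.7% of all genes compared (9 members and 75.4% without HPAF-II replicate 3), and 3 of the 10 (FOSB, FOSL1 and JUN, all lower in HPAF-II) differed at least 2-fold without overlap, against 42.7% (48.0% without that library). The first share is near that of all genes and the second is below it, and the median log2 ratio of its members was -0.36 beside 0.08 over all genes compared.

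JUNB, JUND and BATF3 overlapped between the lines, and in each the HPAF-II spread came from replicate 3. JUNB had 381, 375 and 643 rescaled counts in HPAF-II and 381, 331 and 293 in PANC-1 libraries. JUND had 25.0, 20.3 and 62.1 beside 43.6, 42.6 and 37.6, and BATF3 had 0.560, 0.674 and 1.51 beside 1.33, 1.35 and 1.28. Replicate 3 was high for transcripts rich in G and C. Its log2 difference from the mean of the other HPAF-II libraries had a median of 0.90 in the 1375 genes with the highest GC content and -0.37 in the 1375 with the lowest, and was 1.47 for JUND, whose transcript has a GC content of 69.7%. Without replicate 3 the log2 ratio was 0.17 for JUNB (0.48 with it), -0.87 for JUND (-0.20 with it) and -1.08 for BATF3 (-0.52 with it), only JUNB still overlapped, and 4 members (FOS, FOSL1, JUN and BATF3) differed at least 2-fold without overlap, FOSB no longer among them. The FOSB difference also missed the 2-fold mark without PANC-1 siCtrl replicate 1. QKI itself was 5.13-fold and RBFOX2 1.46-fold higher in PANC-1 siCtrl than in HPAF-II cells.

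**Figure D4:**
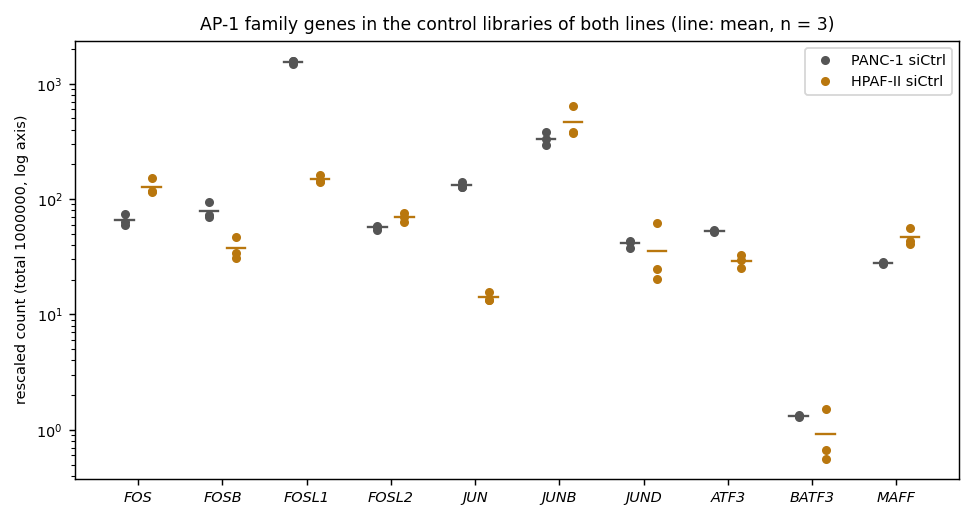
Rescaled counts (log axis) of the AP-1 family genes in the PANC-1 siCtrl (grey) and HPAF-II siCtrl (orange) libraries, with 1 point per library and a line for the mean of 3. FOSL1 and JUN lie 10.4-fold and 9.42-fold lower in HPAF-II cells, and for JUNB, JUND and BATF3 a single HPAF-II library lies above the other two.

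Per kilobase, JUNB was the highest member in HPAF-II cells (256 ± 84.0, SD, n = 3), followed by FOSL1 (88.8 ± 6.91) and FOS (59.4 ± 9.23). FOSL1 held 52.8% ± 4.13 of the Fos level and FOS held 35.2% ± 3.79, while JUNB held 92.0% ± 1.43 and JUN 1.54% ± 0.515 of the Jun level. JUN was at place 9 of the 10 members in HPAF-II cells and at place 3 in PANC-1 siCtrl cells. The HPAF-II levels of FOSL2 and FOSB overlapped. JUND overlapped with MAFF only through replicate 3, and without that library its level was 12.2 (10.9 to 13.4), under MAFF at 16.8, and it moved from place 4 to place 6. Place 6 is not firm, since without that library JUND still overlapped with ATF3 (12.5 to 16.1) and FOSB (9.09 to 12.4). In that alternative, chosen after the data were seen, JUNB had a level of 208 and 92.8% of the Jun level, FOSL1 had 50.9% and FOS 36.8% of the Fos level, and JUN kept place 9.

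The promoters of the members were read from RefSeq (GRCh38.p14), which gave an entry for 8 of the 10 members. The 100 bases before the start site are printed for FOS, FOSB and JUNB. These were picked because they hold a TATA box (TATAAA) close to the start, and not by the size of their fall. That motif and the CRE core TGACG, read on either strand, are in capitals.
FOS, chr14:75278728-75278827, plus strand: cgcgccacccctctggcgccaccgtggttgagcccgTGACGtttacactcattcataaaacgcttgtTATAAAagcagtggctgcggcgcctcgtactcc
FOSB, chr19:45467896-45467995, plus strand: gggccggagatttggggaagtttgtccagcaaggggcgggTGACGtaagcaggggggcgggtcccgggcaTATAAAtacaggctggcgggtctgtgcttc
JUNB, chr19:12791386-12791485, plus strand: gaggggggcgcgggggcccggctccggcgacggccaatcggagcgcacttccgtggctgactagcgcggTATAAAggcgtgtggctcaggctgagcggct
FOS has the core site 64 to 60 bases and the TATA box 33 to 28 bases before the start, and FOSB has them at 60 to 56 and 30 to 25 bases. The core is not particular to these members, since 7 of the 8 promoters hold it. FOSL2, which fell 1.34-fold, has it at 66 to 62 and at 201 to 197 bases, and JUND, which did not pass, has it at 86 to 82 and within its CRE at 200 to 193 bases. JUNB has the TATA box at 31 to 26 and a core site further out, at 137 to 133 bases. JUN, which fell more in siRBFOX2 cells than JUNB (2.09-fold beside 1.64-fold), has a core site at 123 to 119 bases. It has no TATAAA in the 250 bases searched. TATAAA occurs in 10.72% and TGACG in 21.22% of the 35116 promoters of the table. The full CRE TGACGTCA, of which TGACG is part, was found in JUND and MAFF and in 1.646% of all promoters. In the 250 bases searched, none of the 8 matched the TRE TGANTCA (6.573% of all promoters). None matched the CArG box that serum response factor binds (1.159%) either. Bases further upstream and variants of these motifs were not searched, so a missing match does not show that a gene lacks such a site. A match describes these letters and shows no binding, and a link between these motifs and the falls was not tested.

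QKI and RBFOX2 bind RNA at short motifs, so the spliced transcripts of the members, taken from GENCODE on GRCh38, were searched on the sense strand for the QKI motif ACTAAC and the RBFOX motif TGCATG. Of the members that fell at least 1.5-fold in a knockdown, FOSL1, FOSB and JUN carry a match, and each lies in an untranslated region (UTR), printed here with the motif in capitals and 10 bases on each side.
FOSL1, QKI motif in the 3′ UTR, chr11:65892457-65892482, minus strand: cacctagaacACTAACtcaccagccc
FOSB, RBFOX motif in the 3′ UTR, chr19:45474463-45474488, plus strand: ccatccgtgcTGCATGaaaaacattc
JUN, QKI motif in the 5′ UTR, chr1:58783086-58783111, minus strand: cgcagcccaaACTAACctcacgtgaa
JUN, RBFOX motif in the 3′ UTR, chr1:58781756-58781781, minus strand: gaccaagaacTGCATGgacctaacat
Of the 10 members, only FOSL1 and JUN hold ACTAAC, and FOSL2 and MAFF, which also fell in siQKI cells, do not. FOS and JUNB, which fell 5.18-fold and 1.64-fold in siRBFOX2 cells, hold neither motif in their spliced transcripts. The only other match was TGCATG in the 3′ UTR of MAFF. Transcripts of like length often hold TGCATG and less often ACTAAC. Of transcripts within 10% of its length, 11.3% hold ACTAAC for FOSL1 and 24.3% for JUN, and 59.9% hold TGCATG for FOSB and 57.2% for JUN. The study found (A/T/G)CTAAC enriched near QKI-regulated exons, and the forms of it other than ACTAAC were not searched. Introns were not searched either. A match shows no binding, and a link between these motifs and the falls was not tested.

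Other leucine zipper genes rose as often as they fell in siQKI cells, and more of them rose in siRBFOX2 cells. Of 27 tested bZIP partners and relatives, 6 rose and 6 fell in siQKI cells, and 11 rose and 2 fell in siRBFOX2 cells, with median log2 fold changes of -0.0029 and 0.12. Of all tested genes, 14.9% rose and 18.1% fell in siQKI cells, and 12.0% rose and 14.5% fell in siRBFOX2 cells. JDP2, which can hold JUN in a repressive dimer, rose in both (log2 fold changes 0.42 and 0.65), as did MAFG, the Maf partner of the NRF factors (0.37 and 0.55), ATF2, a JUN partner at CRE sites (0.45 and 0.36), and ATF5 (0.52 and 0.53). ATF1 fell in siQKI cells (-0.53) and had a log2 fold change of -0.12 in siRBFOX2 cells, which did not pass.

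The kinases and transcription factors that act upstream of AP-1 changed in part. Of 29 tested genes of the RAS and MAP kinase cascades, 3 rose and 13 fell in siQKI cells and 1 rose and 11 fell in siRBFOX2 cells, with median log2 fold changes of -0.14 and -0.11, beside the 18.1% and 14.5% of all tested genes that fell. RPS6KA1, a kinase downstream of ERK, fell most clearly in siQKI cells (log2 fold change -1.41, and -0.30 in siRBFOX2 cells), and MAP2K3, which activates p38 kinases, fell in both (-0.81 and -0.45). Of the 6 tested serum response and ternary complex factors, 2 rose and 3 fell in siQKI cells and 1 rose and 3 fell in siRBFOX2 cells. SRF, a transcription factor of immediate-early genes, fell by 0.88 in siQKI and by 0.40 in siRBFOX2 cells (log2), and ELK3 fell by 0.84 and 0.26. The SRF cofactor gene MRTFB rose (0.71 and 0.48). MRTFA, also an SRF cofactor gene, rose in siQKI cells (0.39), and its value in siRBFOX2 cells (0.15) did not pass. SRF and ELK3 were lower in siQKI than in siRBFOX2 cells (-0.49 and -0.57, both past the threshold).

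Other immediate-early genes fell more often than they rose in both knockdowns. Of 18 tested, 12 fell and 1 rose in siRBFOX2 cells with a median log2 fold change of -0.82, where 14.5% of all tested genes fell and 12.0% rose. In siQKI cells 8 fell and 2 rose with a median of -0.26, where 18.1% fell and 14.9% rose. EGR2, a growth factor response gene, fell by 2.94 and EGR1 by 1.84 on the log2 scale in siRBFOX2 cells, and by 0.65 and 0.52 in siQKI cells. EGR2 had 5500, 6421 and 4922 normalized counts in siCtrl and 897, 822 and 520 in siRBFOX2 libraries, with replicate 3 lowest as for FOS and FOSB. IER3 (-0.73 in siQKI and -0.94 in siRBFOX2 cells) and CCN2 (-0.51 and -0.90) fell in both knockdowns to more similar extents.

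Over the 9 PANC-1 libraries the genes with the pattern closest to FOSB, by the root mean square difference of centred log2 values among 17868 genes outside the family with a mean of at least 50, were the knockdown target RBFOX2 (difference 0.17), EGR2 (0.22) and NR4A1 (0.28), another immediate-early gene. For FOSL1 they were ADRA1B (0.03), HJURP (0.04) and SH2B3 (0.05), with log2 fold changes of -0.95, -0.87 and -0.83 in siQKI cells. The measure is a description over 9 libraries of 3 groups.

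Genes commonly cited as AP-1 targets fell more often than they rose. Of 28 tested, 15 fell and 3 rose in siQKI cells and 13 fell and 5 rose in siRBFOX2 cells, with median log2 fold changes of -0.31 and -0.34, beside the 18.1% and 14.5% of all tested genes that passed as lower. The integrin subunit ITGA2 had 49488, 48989 and 56320 normalized counts in siCtrl, 25188, 28162 and 28335 in siQKI and 16447, 17467 and 17071 in siRBFOX2 libraries, and fell by 0.92 and 1.60 on the log2 scale. The cyclin gene CCND1 fell by 0.55 and 1.04, the cytokine gene LIF by 0.79 and 0.57 and the hyaluronan receptor gene CD44 by 0.32 and 0.69. Between the knockdowns, 5 of the 28 were higher and 10 were lower in siQKI than in siRBFOX2 cells, where 21.5% of all tested genes differed in either direction. ITGA2, CCND1 and CD44 were among the higher and LIF among the lower. Among negative regulators of Fos and Jun proteins, COP1, TRIB1 and TRIB2 fell in siQKI cells. TRIB1, an adaptor of the COP1 ubiquitin ligase, fell in both knockdowns (log2 fold changes -0.29 and -0.64), and TRIB3 rose in siRBFOX2 cells (0.33). The lists come from general knowledge and are not a measure of AP-1 activity.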

How the data were processed

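The authors deposited signal values, that is, counts per gene after division by DESeq2 size factors, in separate tables for the 9 PANC-1 and the 3 HPAF-II libraries. PolyA-selected libraries were read in pairs, and the submitters' processing notes name STAR 2.7.5a and hg38. Genes follow the FAST DB annotation. The handling of strand and of read pairs is not given in the sources used here. Every value was a whole multiple of 1 step per library (within 0.01), but low values (1 to 30 steps) were mostly multiples of 3, so precision was taken from replicates, not from totals.

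The test between PANC-1 groups was limma 3.58.1 under R 4.3.3, moderated with a mean-variance trend, on log2(value + 1), in a single fit of 9 libraries over 22544 genes with a mean of at least 10. Fold changes on this scale understate those of genes with low counts. Adjustment over genes followed Benjamini and Hochberg (threshold 0.05). HPAF-II and PANC-1 values were rescaled to 1000000 per library and compared as log2 ratios with a pseudocount of 0.01. Levels per kilobase used 1 GENCODE transcript per gene. Other steps were run in Python 3.11.15 with pandas 2.3.3, numpy 2.4.6 and matplotlib 3.10.9.

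The members and lists were chosen with earlier results of these data known. All 10 members are named, whatever their values, and from each list at most 4 genes past the threshold with the lowest adjusted p in either knockdown. JDP2, BATF, ERCC1, ERG28, TTLL5, FOSL2-AS1, COP1, PTPRC, CD3E and MS4A1 are named for another reason (overlap with a member, a count of 5 or fewer, or a marker). Alternatives were other pseudocounts, filters, scaling, a fit of 2 groups, a replicate block, no trend and each library left out. The list of negative regulators is described in part, since a result of it is not reported here.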

Additional observations from a re-analysis of the deposited data

How the results depend on the processing

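Every direction of a called member held under all alternatives. The number of members called stayed within 1.5 times its value in 60 cases and moved further in 1, siQKI against siRBFOX2 without a mean-variance trend, where 4 members (FOS, FOSB, FOSL1 and JUNB) were called in place of 7. The cause was not tested. Leaving out single libraries turned the sign of small values that passed no test. These ranged over the libraries left out from -0.0059 to 0.17 for JUNB, from -0.060 to 0.11 for JUND and from -0.045 to 0.12 for ATF3 in siQKI against siCtrl, and from -0.098 to 0.20 for BATF3 between the knockdowns (log2). In counts of called members, leaving out libraries gave 4 to 6 in siQKI, 7 to 8 in siRBFOX2, 5 to 7 between the knockdowns and 3 to 4 between the lines.

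The replicate numbers are shared between groups, but over all tested genes libraries of the same number did not deviate together (r from -0.03 to 0.02). FOS, FOSB, JUN and JUNB differed from this, since replicate 1 was the highest in each PANC-1 group for each of them. For siQKI against siCtrl, the replicate block lowered the standard error from 0.14 to 0.08 for FOS and from 0.13 to 0.08 for FOSB. It also lowered it from 0.07 to 0.05 for JUN and from 0.08 to 0.05 for both JUNB and JUND, but not for FOSL1 and BATF3. With a replicate block 6 members were called in siQKI cells (FOS and FOSB added), 9 in siRBFOX2 cells (JUND added) and 8 between the knockdowns (JUND added). A fit of the 2 groups compared gave 6 in siQKI cells, again with FOS and FOSB, and 5 between the knockdowns, without ATF3 and MAFF. Upper quartile rescaling turned the calls between the knockdowns from 3 lower and 4 higher to 1 lower and 5 higher, with ATF3 and MAFF lost and JUND gained (adjusted p = 0.0387 by limma, 0.00790 to 0.292 over the alternatives), and moved the median of all genes by under 0.1 (log2). JUND was also gained there without siQKI replicate 3 (log2 0.30). Taking HPAF-II and PANC-1 values as deposited gave 4 members at least 2-fold apart, with ATF3 added.

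The main limits are 3 libraries per group, a depth in fragments that is unknown, the long FOS row with its overlapping genes, and HPAF-II replicate 3 for transcripts rich in G and C.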
